A study of Mus musculus with 180 samples.

Results

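The nuclear genome encodes most of the subunits of the mitochondrial respiratory chain and of the ATP synthase, and 96 of these genes were followed here in LPS-stimulated macrophages treated with clinical kinase inhibitors (CKIs). The members were taken from the 45070 rows of the deposited table by name and level, as rows whose symbol starts with Nduf, Sdh, Uqcr, Cox4, Cox5, Cox6, Cox7, Cox8 or Atp5. Of the 114 symbols with these names, 11 were left out because they carry -ps, the mark of a pseudogene, and 7 because their mean normalized value over all 180 samples was under 10. A normalized value is the exonic read count of a gene after scaling by the authors on invariant genes, rounded to a whole number, and has no fixed unit. The members were thus selected on their name and mean normalized value, and the test of changes covered the 12714 rows with a mean of at least 10, so that all 96 members were tested. The members just inside the limit were *Sdhaf3* with a mean of 16.3 and *Ndufa11b* with 17.5, and the symbols just outside were *Cox6b2* with 4.13 and *Cox6a2* with 3.62.

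The cells were bone marrow-derived macrophages of wild type genotype, cultured from the marrow of young male C57/BL6 mice according to the study's methods. All samples received LPS, a bacterial component that activates TLR4, at 10 ng/ml for 2 h, so that no group shows unstimulated cells. For 1 h before LPS the cells had received a CKI (58 in all, 3 samples each) or the vehicle DMSO, with 6 samples that the labels divide into 2 sets with replicates 1 to 3 in each. Each CKI was used at its own concentration, and all 58 comparisons share the same 6 DMSO samples. The methods describe independent biological replicates, whereas the labels do not say which samples came from the same animal.

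The respiratory chain lies in the inner membrane of mitochondria and passes electrons from NADH and succinate to oxygen while protons are pumped across the membrane. Complex I (NADH dehydrogenase, Nduf genes) and complex II (succinate dehydrogenase, Sdh genes) take up the electrons, complex III (Uqcr genes) passes them to cytochrome c, complex IV (Cox genes) passes them to oxygen, and complex V (Atp5 genes) uses the proton gradient to make ATP. LPS-activated macrophages are known to shift from oxidative phosphorylation towards glycolysis, which is why these genes are of interest in this cell type. The 96 members comprised 41 subunits of complex I, 4 of complex II, 8 of complex III, 13 of complex IV with *Ndufa4*, 17 of complex V, and 13 assembly factors and related proteins. The annotation gives 3 members, *Cox6c2*, *Ndufa11b* and *Ndufs6b*, as pseudogenes, and *Ndufb4*, *Ndufb4b* and *Ndufb4c* are near-identical copies that can share reads, as can *Atp5l* and a pseudogene copy, *Atp5l2-ps*, with a mean of 2130. The span of 10 members overlapped a tested gene on the opposite strand, and the use of the strand in counting is not stated in the sources used here.

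Genes of the respiratory chain are known to be regulated in common through promoter elements for NRF1, ETS-family factors such as GABP, and YY1. RefSeq windows of 300 bases around the transcription start (GRCm38.p6, the assembly behind mm10) were matched by symbol for 79 of the 96 members and for 9101 of 12672 tested symbols. The NRF1 element GCGCATGCG was present on either strand in 10 member windows (12.7%) and in 3.90% of all tested windows, the ETS element CCGGAAG in 21 (26.6%) and 19.8%, and the YY1 element AAGATGGCG in 7 (8.86%) and 3.44%. These are matches of letters and are not evidence of binding. Below are the 120 bases before the start of 7 members, chosen because *Atp5g2*, *Cox7b* and *Ndufa8* were among the members that rose with the most CKIs and *Uqcrfs1*, *Cox5a*, *Sdhaf1* and *Ndufaf4* were those that fell with 3 or more CKIs. They are written 5′ to 3′ on the strand of the gene, and capitals mark the NRF1 element or its reverse complement, which overlap in *Atp5g2* and *Ndufaf4*.
Atp5g2 (chr15:102671048-102671167, minus strand): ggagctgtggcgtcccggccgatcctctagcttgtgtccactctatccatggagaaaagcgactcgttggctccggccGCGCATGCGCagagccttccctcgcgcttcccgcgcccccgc
Cox7b (chrX:106015580-106015699, plus strand): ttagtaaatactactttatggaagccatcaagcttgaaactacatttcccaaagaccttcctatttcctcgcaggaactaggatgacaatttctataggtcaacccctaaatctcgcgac
Ndufa8 (chr2:36049339-36049458, minus strand): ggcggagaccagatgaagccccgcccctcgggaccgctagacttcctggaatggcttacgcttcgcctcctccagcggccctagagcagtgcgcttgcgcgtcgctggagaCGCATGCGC
Uqcrfs1 (chr13:30545317-30545436, minus strand): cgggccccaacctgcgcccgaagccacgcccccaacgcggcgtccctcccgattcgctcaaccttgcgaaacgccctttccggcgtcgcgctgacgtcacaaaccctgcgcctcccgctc
Cox5a (chr9:57521112-57521231, plus strand): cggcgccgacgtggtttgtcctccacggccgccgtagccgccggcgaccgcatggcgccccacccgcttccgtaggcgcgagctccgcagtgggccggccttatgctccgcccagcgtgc
Sdhaf1 (chr7:30322376-30322495, minus strand): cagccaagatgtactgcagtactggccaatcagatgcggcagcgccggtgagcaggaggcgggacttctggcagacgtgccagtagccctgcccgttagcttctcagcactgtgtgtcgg
Ndufaf4 (chr4:24897963-24898082, plus strand): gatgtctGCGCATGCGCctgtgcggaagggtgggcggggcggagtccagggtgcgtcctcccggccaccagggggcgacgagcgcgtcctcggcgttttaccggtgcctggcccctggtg
The NRF1 element was found in *Atp5g2* and *Ndufa8*, which rose, and in *Ndufaf4*, which fell with PI3K and mTOR inhibitors. No searched element was found in these 120 bases of *Cox7b*, *Uqcrfs1*, *Cox5a* or *Sdhaf1*. In the 300-base windows, the NRF1 element was present in 6 of 49 members that rose with at least 1 CKI and fell with none (12.2%), in 0 of 7 that fell and never rose, and in 3 of 21 that were never called (14.3%).

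In the DMSO samples the members were far above the median gene. In bulk samples a difference in the number of cells and in RNA per cell cannot be told apart, which applies to each value given here. Per kilobase of annotated transcript, the median DMSO value was 985 for the members and 59.3 for the 12714 tested genes. By complex the medians per kilobase were 2683 for complex IV, 2054 for complex V, 1601 for complex III, 953 for complex II and 715 for complex I, and the assembly factors lay at 45.2. The order places the terminal enzymes of the chain above its entry points, and assembly factors, which help to build the complexes but are not part of them, near the median gene. *Cox6a1*, a small subunit of complex IV, was highest with 10457 ± 1270 per kilobase (SD, n = 6), and the lowest member was the assembly factor *Ndufaf4* with 16.7 ± 3.92. *Atp5b*, the catalytic beta subunit of the ATP synthase, had 5872 ± 1369 per kilobase and was the highest member of complex V. Together the members made up between 1.05 and 1.40% of the total in the DMSO samples and between 0.941 and 1.46% in the CKI samples, so the ranges overlapped.

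For most paralogous isoforms, nearly all signal came from the ubiquitous member (means over all samples here are normalized values not divided by length). *Cox4i1*, the general form of the complex IV subunit 4, had a mean of 7832 over all samples, whereas *Cox4i2*, the form known from lung and hypoxia, had 2.98. *Cox6a2* and *Cox6b2*, known from muscle and testis, had means of 3.62 and 4.13 with highest values of 12 and 14, while *Cox6a1* and *Cox6b1* had means of 5507 and 2106. *Cox7a1*, the form of heart and muscle, had a mean of 31.2 beside 1661 for *Cox7a2*. *Cox8b* and *Cox8c* were at 0 in all samples and *Cox8a* had a mean of 4854. *Ndufa4l2*, a hypoxia-induced relative of *Ndufa4*, had a mean of 0.0667 beside 1472 for *Ndufa4*. The exception was subunit c of the ATP synthase, the rotor ring, whose identical mature protein is encoded by *Atp5g1*, *Atp5g2* and *Atp5g3* with DMSO levels per kilobase of 1097 ± 249, 2502 ± 539 and 2099 ± 368 (SD, n = 6). The ranges of *Atp5g2* and *Atp5g3* overlapped on this scale.

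Across the 58 CKIs the members were called higher more often than lower. A call is an adjusted p-value under 0.05 by limma's moderated test over the 12714 tested genes. Of 5568 pairs of a member and a CKI, 241 (4.33%) were higher and 27 (0.485%) lower, whereas of all pairs of a tested gene and a CKI 2.52% were higher and 1.65% lower. At least 1 member was called with 14 CKIs, and none with the other 44, of which 17 had no gene called at all. The median log2 fold change of the members lay between -0.08 and 0.40 across the CKIs, was above 0 with 54 CKIs and above the median of all tested genes with 50. Of the 96 members, 61 rose with at least 1 CKI, 12 fell with at least 1, 2 did both (*Ndufa5* and *Ndufaf4*) and 25 were never called. Scaling the samples again by the median of ratios shifted the median of all genes by up to 0.19 on the log2 scale and gave 170 higher and 77 lower pairs, which is 3.05% and 1.38% of the pairs beside 1.67% and 2.38% over all tested genes. Of the member calls 68.8% were higher on that scale and 89.9% as deposited. Scaling to equal totals gave 170 higher (3.05%) and 55 lower pairs (0.988%), beside 1.62% and 2.00% over all tested genes. With the replicate number as a block, which pairs the samples for 34 of the 58 CKIs, there were 448 higher (8.05%) and 88 lower pairs (1.58%), beside 4.60% and 3.08% over all tested genes.

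**Figure D1:**
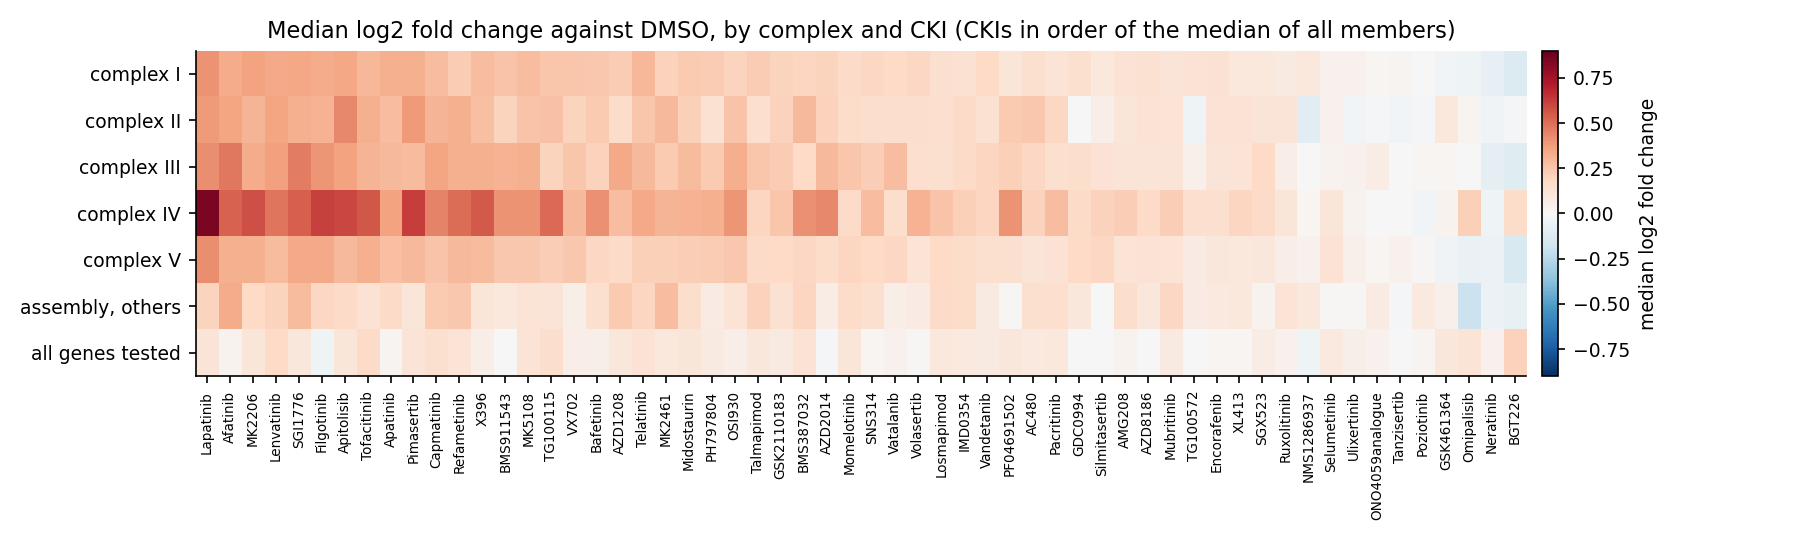
Each column is a CKI and each row a complex, with the assembly factors and all 12714 tested genes in the lowest rows, and the colour gives the median log2 fold change against the 6 DMSO samples. Lapatinib stands at the left with the highest member median (0.40) and BGT226 at the right with the lowest (-0.08), and complex IV has the deepest red.

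The number of higher pairs rested on few samples. Without replicate 2 of every group there were 2 higher (0.0359%) and 14 lower pairs (0.251%), below the 0.648% and 0.512% over all tested genes. Without replicate 3 there were 43 (0.772%) and 14 (0.251%), beside 0.971% and 1.51%, and without replicate 1 224 (4.02%) and 60 (1.08%), beside 2.33% and 1.45%. Among the DMSO samples, leaving out replicate 2 of set 2 gave 84 higher (1.51%) and 22 lower pairs, beside 1.30% of all pairs higher, and leaving out replicate 1 of set 2 gave 375 (6.73%) and 46, beside 3.94% higher. With DMSO set 1 alone as reference there were 46 higher (0.826%) and 21 lower pairs, beside 1.12% higher over all genes, and with set 2 alone 93 (1.67%) and 17, beside 1.21%. The mean log2 level of the members was between 9.19 and 9.40 in the DMSO samples, lowest in replicate 2 of set 2 and highest in replicate 1 of set 2. Compared only with DMSO samples of the same number, the median of the members was above 0 with 48 of 58 CKIs for replicate 1. It was above 0 with 53 for replicate 2 and 45 for replicate 3. The middle values were 0.14, 0.27 and 0.16 on the log2 scale, beside 0.02, 0.06 and 0.12 for all tested genes.

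**Figure D2:**
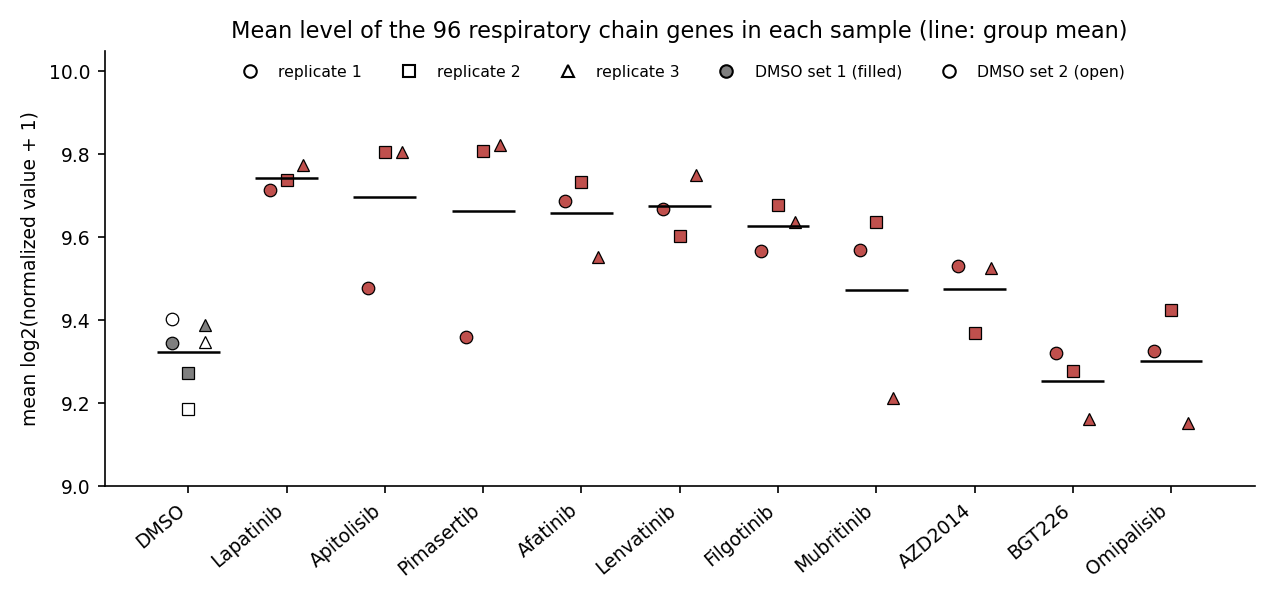
The mean of log2(normalized value + 1) over the 96 members is plotted for each of the 6 DMSO samples and for the 3 samples of 10 CKIs, with the replicate number as the symbol, DMSO set 2 as open symbols and the group mean as a line. All 3 samples of Lapatinib, Apitolisib, Afatinib, Lenvatinib and Filgotinib lie above the highest DMSO sample (9.40), replicate 1 of Pimasertib (9.36) lies within the DMSO range, and BGT226 and Omipalisib overlap the DMSO samples.

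Mitochondrially encoded transcripts and cytosolic ribosomal protein genes were also higher with most CKIs. The share of the 13 mitochondrially encoded protein genes in the total was 0.301 to 1.05% in DMSO and 0.236 to 2.25% in the CKI samples, and their median change was above 0 with 52 of 58 CKIs. The median of the 94 tested cytosolic ribosome genes was above 0 with 56 of 58. The median of all tested genes was also above 0 with most CKIs, and lay between -0.04 and 0.21. Among the DMSO samples, replicate 2 of set 2, with the lowest mean level of the members, also had the lowest mitochondrial share (0.301%), and replicate 1 of set 2 the highest (1.05%). The replicate number alone as a block gave 448 higher and 88 lower pooled calls. With the replicate number and the mitochondrial share of each sample in the fit, the pooled calls were 149 higher (2.68%) and 51 lower (0.916%). Over all tested genes that fit gave 1.96% higher and 2.36% lower. The part of these genes in the result was not tested beyond that fit.

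The members with the most calls were small accessory or membrane subunits: *Atp5g2*, a rotor ring gene, rose with 9 CKIs, *Cox6c* and *Cox7b* of complex IV with 8 each, and *Ndufa8*, *Ndufb11*, *Ndufs5* and *Ndufs8* of complex I with 7 each. Of these only *Ndufs8* is a catalytic core subunit, which holds iron-sulfur clusters. Of the core subunits taken by name, *Ndufs1*, *Ndufv1*, *Sdha* and *Sdhb* of complexes I and II were called with none of the 58 CKIs. Nor were *Uqcrc1* of complex III and *Atp5a1* and *Atp5b*, the alpha and beta subunits of the ATP synthase, whereas *Uqcrfs1* fell with 3. *Cox5a*, taken by name with them but not a core subunit of complex IV, also fell with 3. The division was not a clean one, since the accessory subunits *Ndufa6*, *Ndufa12* and *Cox5b* were also never called and *Cox4i1* and *Uqcrc2* rose with 5 and 3 CKIs, members picked after their values were seen. The steadiest members were *Atp5c1*, the gamma subunit, *Cox6a1* and *Ndufs3*, with an SD of the log2 fold change over 58 CKIs of 0.064, 0.065 and 0.065.

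Across the 96 members the mean log2 fold change over the 58 CKIs had a Spearman's rho of -0.41 with transcript length, and -0.17 across the 12714 tested genes. Genes are not independent replicates, and all 58 comparisons share the DMSO samples, so this is a description. The median of this mean was 0.24 for the 43 members under 700 bases and 0.07 for the 29 members of at least 1200 bases. Over all tested genes it was 0.29 for the 774 under 700 bases and 0.05 for the 10701 of at least 1200, so the medians of the members lay close to those of all genes of like length. The shares of all tested genes given beside each CKI were not matched for length. Whether the shares of members differ from those of genes of like length was not tested.

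**Figure D3:**
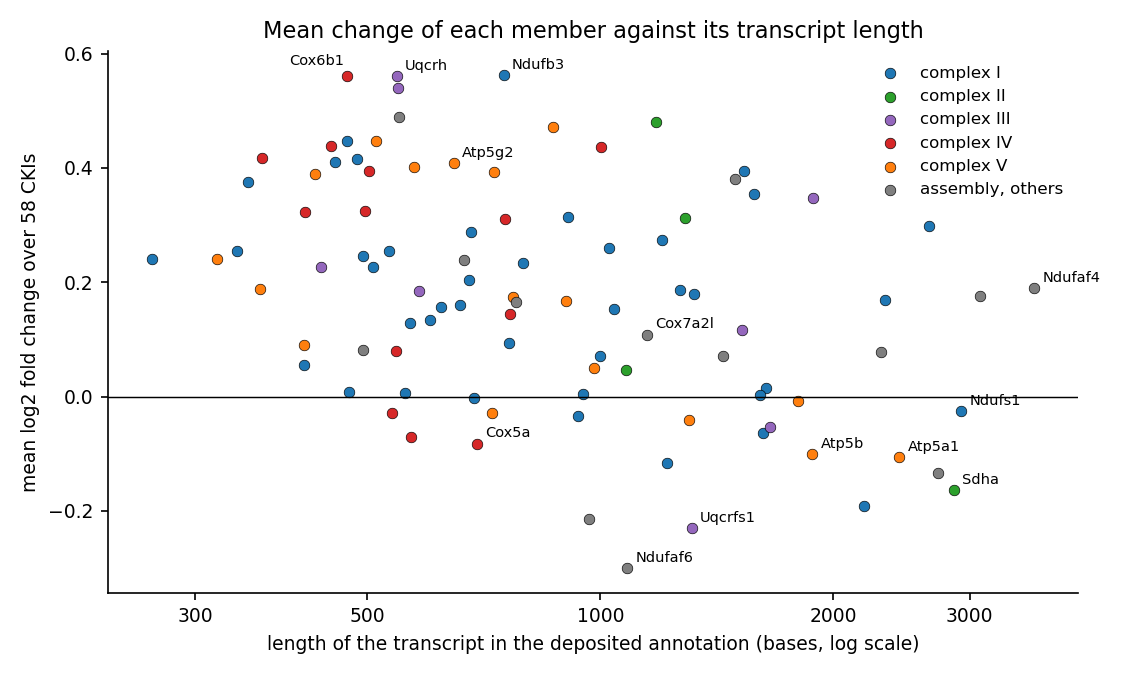
Each point is a member, with the transcript length in the deposited annotation in bases on a log scale and the mean log2 fold change against DMSO over 58 CKIs, coloured by complex. *Cox6b1*, *Uqcrh* and *Ndufb3* stand highest (0.56 each), and the long catalytic subunits *Atp5b*, *Atp5a1* and *Sdha* lie between -0.16 and -0.10.

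Lapatinib, an ERBB receptor inhibitor, gave the most calls, with 52 members higher (54.2%) and 1 lower (1.04%), beside 18.1% and 5.26% of all tested genes. By role, 25 of 41 complex I subunits rose, 2 of 4 in complex II, 5 of 8 in complex III, 9 of 13 in complex IV and 10 of 17 in complex V, but 1 of 13 assembly factors. Within complex I, 24 of 32 accessory subunits and 1 of 7 core subunits rose, a difference that was not tested. *Cox6b1*, which joins complex IV monomers at the intermembrane side, had 1280, 1083 and 1219 in DMSO set 1, 2281, 862 and 1360 in set 2, and 4557, 4175 and 3795 with Lapatinib. The groups did not overlap, and the log2 fold change was 1.69 ± 0.43 (SE, adjusted p = 0.0076 by limma). *Uqcrh*, the hinge protein of complex III, had 263 to 776 in DMSO with a mean of 467 ± 176 (SD, n = 6) and 1548, 1283 and 1237 with Lapatinib, a log2 fold change of 1.61 ± 0.45 (SE, adjusted p = 0.0105 by limma). *Ndufb3*, an accessory membrane subunit of complex I, had 139 to 383 in DMSO and 605, 613 and 534 with Lapatinib. All of these short transcripts were lowest in replicate 2 of DMSO set 2 and highest in replicate 1 of set 2. *Atp5b* went the other way without passing the test, with 7160 to 13766 in DMSO and 7818, 9294 and 9673 with Lapatinib (log2 fold change -0.27 ± 0.18, adjusted p = 0.245 by limma), and *Sdha* had a log2 fold change of -0.31 ± 0.14 (adjusted p = 0.0906). The mitochondrial share was 1.70, 1.51 and 1.04% with Lapatinib. Without replicate 1 of Lapatinib 16 members were called, without replicate 2 or 3 of every group 0 and 4, without its replicate 3 30, without replicate 2 of DMSO set 2 31, and with the block of replicate numbers and mitochondrial share 2.

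**Figure D4:**
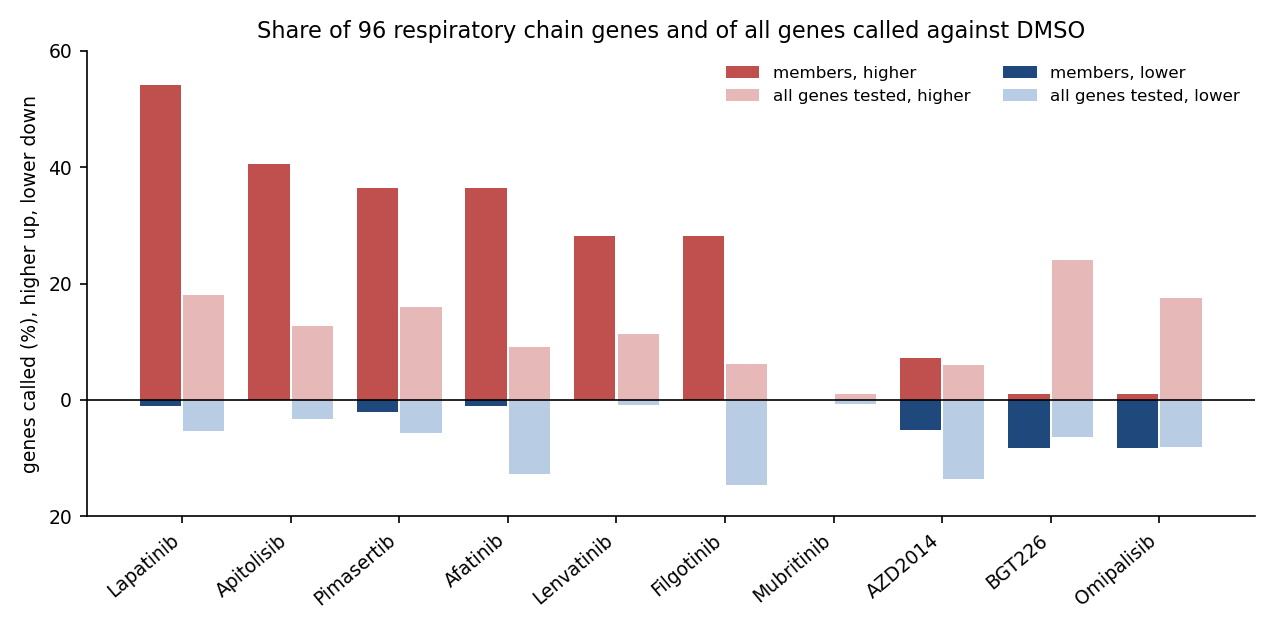
The bars give the share of the 96 members (dark) and of the 12714 tested genes (light) called higher (upwards) or lower (downwards) with each of 10 CKIs. With the 6 CKIs at the left between 28.1 and 54.2% of the members were higher, with Mubritinib none, and with BGT226 and Omipalisib 1.04% of the members were higher beside 24.1 and 17.5% of all genes.

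Apitolisib, which inhibits PI3K and mTOR, raised 39 members (40.6%) and lowered none, beside 12.7% and 3.20% of all tested genes. *Cox6b1* again had the largest rise among the members, with 3542, 2992 and 4782 (log2 fold change 1.52 ± 0.43, adjusted p = 0.0184 by limma), before *Uqcrh* (1.41) and *Ndufb3* (1.38). *Atp5g1* rose from 952 ± 216 in DMSO (SD, n = 6) to 1769, 2195 and 2379, so that all CKI samples lay above the DMSO samples. Lapatinib and Apitolisib were compared directly as the CKIs with the most calls: 0 of 96 members differed (0% of all tested genes), none had an unadjusted p under 0.05 by limma beside 382 of 12714 genes, and the median difference of the members was 0.04 on the log2 scale. The test does not show that the 2 CKIs act alike. Without replicate 3 of Apitolisib, or without replicate 2 or 3 of every group, no member was called, without its replicate 2 8, without replicate 2 of DMSO set 2 1, and with the mitochondrial share in the fit none.

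Pimasertib, a MEK inhibitor, raised 35 members (36.5%) and lowered 2 (2.08%), beside 16.0% and 5.68% of all tested genes. *Ndufb3* had 525, 689 and 667 (log2 fold change 1.66 ± 0.44, adjusted p = 0.00613 by limma), and *Cox6b1* and *Uqcrh* followed with log2 fold changes of 1.64 and 1.60. *Uqcrfs1*, the Rieske iron-sulfur protein of complex III, fell from between 1889 and 3263 in DMSO to 1747, 1820 and 1840, below every DMSO sample (log2 fold change -0.55 ± 0.19, adjusted p = 0.0325 by limma). It also fell with Lapatinib (-0.50) and AZD2014 (-0.64). *Ndufaf6*, an assembly factor of complex I, fell with Pimasertib to 7, 20 and 28 from 17 to 48, so that the groups overlapped. The samples of Pimasertib differed among themselves: the median of the members against DMSO of the same number was -0.06 in replicate 1, 0.51 in replicate 2 and 0.44 in replicate 3. The medians of all tested genes were -0.01, 0.10 and 0.27 in the same order. Its mitochondrial share of 1.72 to 2.25% was above every DMSO sample. Without replicate 2 or 3 of Pimasertib 7 and 3 members were called, without either of these numbers in every group none, without replicate 2 of DMSO set 2 17, and with the mitochondrial share in the fit none.

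Afatinib, an irreversible ERBB inhibitor, raised 35 members (36.5%) and lowered 1 (1.04%), beside 9.06% and 12.8% of all tested genes. Of the complex I subunits 20 of 41 rose, with *Ndufb4* at 522, 536 and 424 beside 201 to 389 in DMSO, and its copy *Ndufb4b*, which can share its reads. *Cox6c* rose to 2371, 2401 and 1826 from 1350 ± 267 (SD, n = 6), with a log2 fold change of 0.72 ± 0.22 (adjusted p = 0.0132 by limma). *Sdhaf1*, a factor for the iron-sulfur subunit of complex II, was the only member lower, at 14, 9 and 15 beside 16 to 53 in DMSO. The mitochondrial share of 0.405 to 1.06% largely overlapped that of DMSO, and with it and the replicate number in the fit 51 members (53.1%) rose and 4 (4.17%) fell. Over all tested genes that fit gave 13.3% higher and 17.9% lower. Without replicate 1 or 2 of Afatinib 16 and 2 members were called, without replicate 2 of DMSO set 2 20, and without replicate 1 or 2 of every group 21 and 0.

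Lenvatinib, an inhibitor of VEGF receptors and other receptor kinases, raised 27 members (28.1%) and lowered none, beside 11.4% and 0.802% of all tested genes. *Sdhc*, a membrane anchor of complex II, had 1722, 1262 and 1812 beside 518 to 1256 in DMSO (log2 fold change 0.97 ± 0.32, adjusted p = 0.0392 by limma), and *Atp5g1* had 1848, 1366 and 2316. These groups did not overlap, although the lowest *Sdhc* value with Lenvatinib was close to the highest in DMSO. Same-numbered Lenvatinib and DMSO samples deviated together, and a fit blocked on that number gave 45 members higher and 4 lower. The shares of all tested genes in that blocked fit are not given here. With a second scaling by the median of ratios no member rose and 1 fell, and with equal totals or with the mitochondrial share in the fit none was called. None was called without replicate 3 of Lenvatinib, without replicate 2 or 3 of every group or without replicate 2 of DMSO set 2, and 3 and 5 were called without replicate 1 or 2 of Lenvatinib. Without replicate 2 or 3 of DMSO set 1 the counts were 14 and 8, and without replicate 1 or 3 of set 2 44 and 13. The mitochondrial share with Lenvatinib was 1.14 to 2.00%.

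Filgotinib, a JAK1 inhibitor, raised 27 members (28.1%) and lowered none, beside 6.10% and 14.6% of all tested genes. *Cox7b*, a small subunit of complex IV, had 1579, 1657 and 1590 beside 622 to 1308 in DMSO, with no overlap (log2 fold change 0.83 ± 0.25, adjusted p = 0.0119 by limma). *Ndufa4*, a subunit now placed in complex IV, had 1799, 1816 and 1820 beside 908 to 1484. The median log2 fold change was 0.33 for the members and -0.04 for all tested genes. With the mitochondrial share and the replicate number in the fit 26 (27.1%) rose, beside 6.58% of all tested genes. With the median of ratios scaling 43 (44.8%) rose, beside 9.02%. Leaving out replicate 1, 2 or 3 of Filgotinib gave 9, 3 and 9 calls, leaving out replicate 2 of DMSO set 2 gave 9, and leaving out number 2 or 3 in every group gave 0 and 3. Tofacitinib, another JAK inhibitor, raised 12 members (12.5%) and lowered none, beside 9.02% and 0.857% of all tested genes, among them *Atp5g1* (1907, 2125 and 1407) and *Ndufaf4* (113, 114 and 97, log2 fold change 0.85 ± 0.23, adjusted p = 0.0199 by limma). By the median of ratios 1 member was higher and 1 lower with Tofacitinib, with equal totals 1 was higher, and with the block and mitochondrial share none was called, beside 1.31%, 1.30% and 0.370% of all tested genes higher.

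Mubritinib, developed against ERBB2, is known to act on complex I itself, but changed none of the 96 members by limma, of which 4 had an unadjusted p under 0.05, beside 1.08% of all tested genes higher and 0.763% lower. The median log2 fold change of the members was 0.13. The samples differed, with medians against DMSO of the same number of 0.19, 0.33 and -0.19 for replicates 1 to 3. For all tested genes these medians were 0.03, 0.14 and 0.03. No limit of detection was computed, so the lack of calls does not show that the members were unchanged. The remaining CKIs with calls were MK2206 (AKT) with *Ndufa8* and *Ndufs5* higher, Silmitasertib (CK2) with *Atp5e* higher, BMS911543 (JAK2) with *Sdhaf1* lower (1, 16 and 7, adjusted p = 5.12e-05 by limma), and PF04691502 (PI3K and mTOR) with *Atp5g2* and *Cox7a2l* higher and *Ndufaf4* lower. The shares of all tested genes called higher and lower were 0.983% and 0.834% for MK2206, 0.00787% and 0.275% for Silmitasertib, 0.472% and 8.08% for BMS911543, and 8.86% and 4.22% for PF04691502.

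The lower calls of members came mainly with inhibitors of PI3K and mTOR, but in the values as deposited their shares were near or below the background. AZD2014 (mTOR) raised 7 and lowered 5 members, beside 6.06% and 13.5% of all tested genes. BGT226 and Omipalisib (PI3K and mTOR) each raised 1 and lowered 8 (8.33%). The background was 24.1% higher and 6.32% lower for BGT226 and 17.5% and 8.16% for Omipalisib, so that the share of lower members was near the background in the values as deposited. This depended on the scaling. By the median of ratios, 38 members (39.6%) were lower with BGT226 and 20 (20.8%) with Omipalisib, beside 15.1% and 13.6% of all tested genes, and with equal totals 20 (20.8%) and 22 (22.9%), beside 9.86% and 15.1%. Without replicate 1 of DMSO set 2 there were 15 and 14 calls, and without replicate 1 and then 3 of every group 14 and 4 with BGT226 and 20 and 3 with Omipalisib, which had 5 without replicate 2. For AZD2014, 4 and 6 calls were left without its replicate 1 or 3, 7 without replicate 2 of DMSO set 2, and 7, 2 and 7 without each number in every group. These 3 CKIs were picked after their values were seen, because they had the most members lower. Of the 8 members lower with each, 7 were the same: *Atp5g3*, *Atp5pb*, *Cox5a*, *Ndufaf4*, *Ndufb9*, *Ndufc1* and *Ndufv2*. Both comparisons use the same DMSO samples.

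*Ndufaf4* (chr4:24898083-24905001, plus strand, mm10), an assembly factor of complex I, had 64, 50 and 64 in DMSO set 1 and 86, 52 and 48 in set 2. It had 27, 30 and 14 with BGT226, 24, 31 and 27 with Omipalisib and 31, 26 and 35 with PF04691502. Every sample of these CKIs lay below every DMSO sample. The log2 fold changes were -1.36 ± 0.23 (SE, adjusted p = 7.71e-07), -1.10 ± 0.23 (1.07e-04) and -0.94 ± 0.23 (0.00301) by limma. With AZD2014 it had 33, 26 and 59, which overlapped DMSO, and the log2 fold change was -0.67. Apitolisib, although also a PI3K and mTOR inhibitor, gave 73, 89 and 91 (log2 fold change 0.49 ± 0.23, adjusted p = 0.124 by limma). According to the paper Apitolisib was used to target JAK1. Its action on PI3K and mTOR at that concentration, and the part of the concentration in this difference, were not tested.

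*Cox5a* (chr9:57521232-57532427, plus strand, mm10), a nuclear-encoded subunit of complex IV, fell with AZD2014, BGT226 and Omipalisib. In DMSO it had 2173, 2537 and 3034 in set 1 and 2080, 2714 and 2816 in set 2. With BGT226 it had 1574, 2036 and 1914, and with Omipalisib 1722, 1913 and 1827, with no overlap. The log2 fold changes were -0.47 and -0.48 (SE 0.12, adjusted p = 7.95e-04 and 9.14e-04 by limma). With AZD2014 it had 1784, 1804 and 2097 (log2 fold change -0.42, adjusted p = 0.00432 by limma).

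*Cox7a2l* (chr17:83501917-83514333, minus strand, mm10), known as a factor for supercomplexes of complexes III and IV, rose with 6 CKIs. Its function in these cells was not measured. It had 2289, 1928 and 2120 in DMSO set 1 and 2257, 1955 and 2039 in set 2, an SD of 7.23% of the mean. It had 2873, 2726 and 2882 with Omipalisib (log2 fold change 0.43 ± 0.07, adjusted p = 2.56e-07 by limma) and 2688, 2693 and 2959 with AZD2014 (0.41 ± 0.07, adjusted p = 1.30e-06 by limma). With BGT226 it had 2652, 2314 and 2366, with PF04691502 2719, 2685 and 2490, with Afatinib 2682, 2809 and 2443 and with Filgotinib 2352, 2305 and 2540. Each of these samples lay above all 6 DMSO samples. The rise with BGT226 was not called after scaling by the median of ratios.

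*Sdhaf1* (chr7:30321409-30322375, minus strand, mm10) was nearly absent with AZD2014, at 1, 6 and 0 beside 30, 46 and 16 in DMSO set 1 and 35, 53 and 28 in set 2. The log2 fold change was -3.79 ± 0.46 (SE, adjusted p = 5.22e-11 by limma) on the log2(value + 1) scale, which understates the change of low genes. With Omipalisib it had 17, 18 and 14 and with BGT226 17, 35 and 16, neither of which passed the test. *Ndufaf6* fell with AZD2014 to 10, 11 and 12 from 36.0 ± 12.3 in DMSO (SD, n = 6), below every DMSO sample.

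Single members were followed through refits for the 249 calls with 9 CKIs: the 6 leading ones, AZD2014, BGT226 and Omipalisib. The calls with Tofacitinib, PF04691502, MK2206, Silmitasertib and BMS911543 were not followed in this way. Of the 249 calls, 7 kept an adjusted p under 0.05 by limma in all the refits run for them (24 each, 23 for *Sdhaf1*). They were *Cox7a2l* higher with AZD2014 and Omipalisib, *Sdhaf1* lower with AZD2014, and *Ndufaf4* and *Cox5a* lower with BGT226 and Omipalisib. A log2 fold change of at least 0.5 in size, which was not among these refits, is met by *Sdhaf1* and *Ndufaf4* but not by *Cox7a2l* or *Cox5a*. None of the rises with Lapatinib, Apitolisib, Pimasertib, Afatinib, Lenvatinib or Filgotinib kept its call in all the refits.

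**Figure D5:**
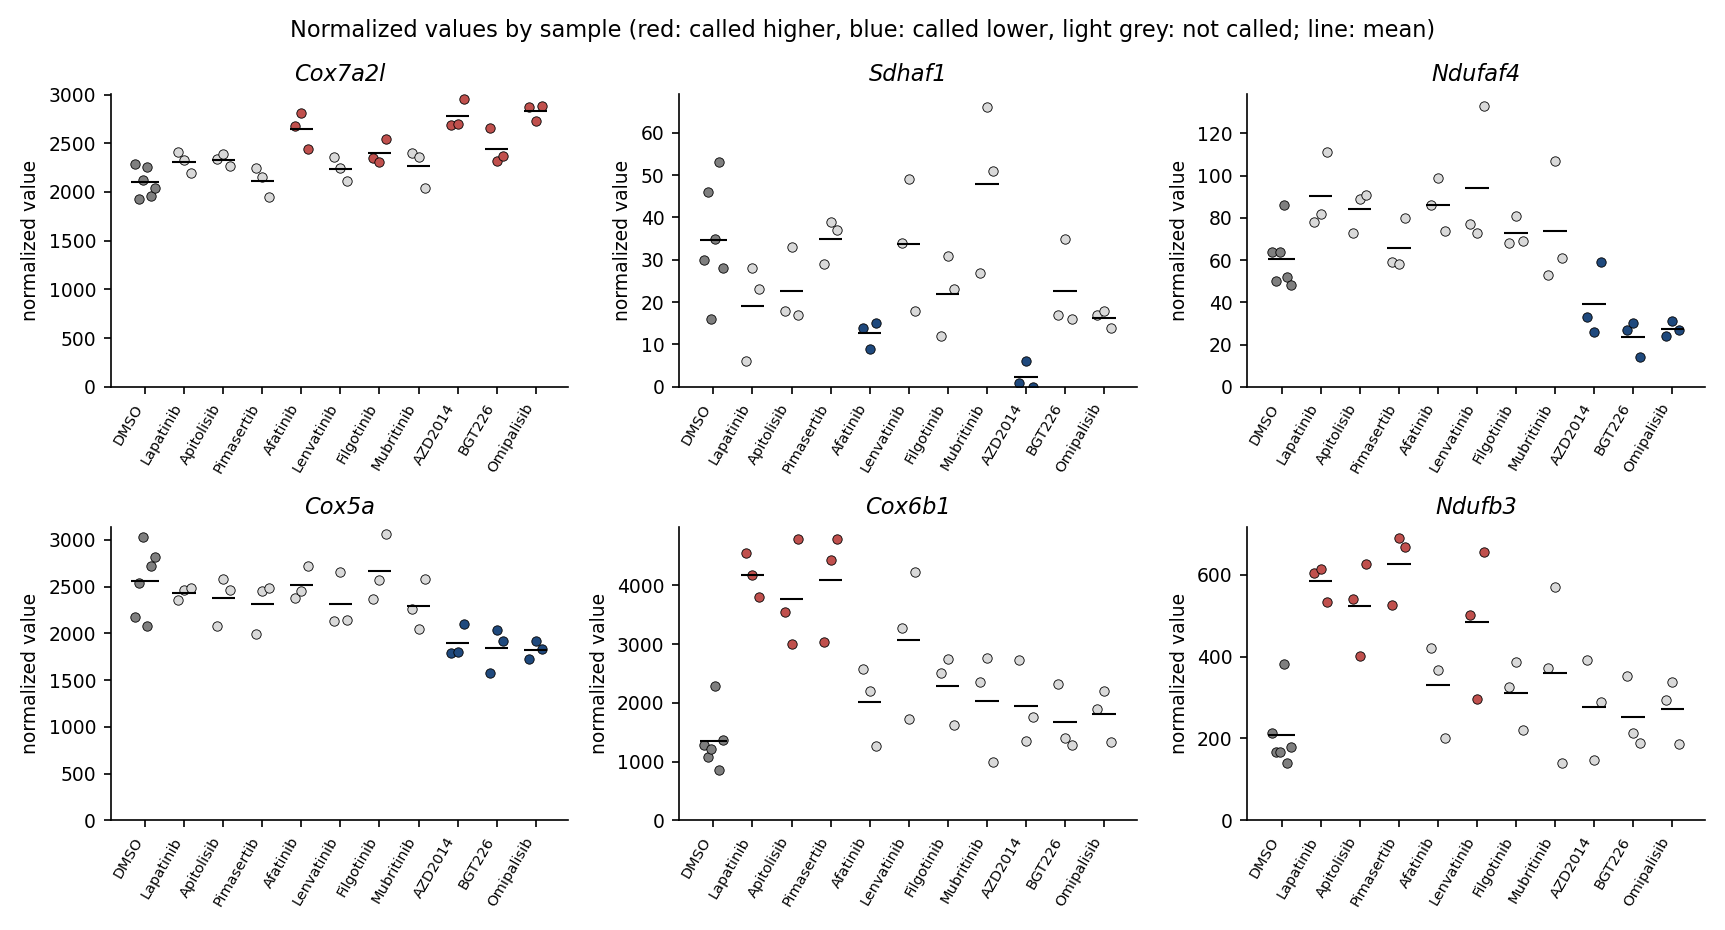
Normalized values of 6 members are plotted for the 6 DMSO samples and for the 3 samples of each of 10 CKIs, with the mean as a line and colours for calls by limma. *Ndufaf4* with BGT226 and Omipalisib and *Sdhaf1* with AZD2014 lie below all DMSO samples, and *Cox6b1* and *Ndufb3* with Lapatinib lie above them, while a DMSO sample of each (2281 and 383) stands apart from the other DMSO samples.

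The other genes of mitochondrial energy metabolism were described by lists, whose difference from the members was not tested. Of 39 tested assembly factors and carriers of the chain outside the members, 6 rose (15.4%) and 2 fell (5.13%) with Lapatinib, near the 18.1% and 5.26% of all tested genes. With Afatinib 12 rose (30.8%) and 3 fell (7.69%), beside 9.06% and 12.8%, and with AZD2014 3 rose (7.69%) and 8 fell (20.5%), beside 6.06% and 13.5%. *Coa7*, a complex IV assembly factor, rose with Lapatinib (0.99), Afatinib (1.08) and BGT226 (0.84), and *Lrpprc*, which stabilises mitochondrial messenger RNA, fell with Afatinib (-1.79) and AZD2014 (-2.44). Of 15 enzymes of the tricarboxylic acid cycle and pyruvate dehydrogenase, 2 rose (13.3%) and none fell with Lapatinib, and 1 rose (6.67%) and 3 fell with Omipalisib, beside 17.5% and 8.16% of all tested genes, among them fumarase *Fh1* (-0.65). Of 12 tested regulators of mitochondrial genes, *Pprc1*, a coactivator of the PGC-1 family, fell with 7 of the 10 CKIs shown (log2 fold change -1.68 with AZD2014), and *Nrf1* fell with 5 of them. Of 78 mitochondrial ribosome genes, 25 rose (32.1%) and 2 fell with Lapatinib and 3 rose and 13 fell (16.7%) with Omipalisib. All 13 mitochondrially encoded genes rose with Lapatinib, Pimasertib and Lenvatinib, 12 with Apitolisib and none with the other 6 CKIs shown. Cytosolic ribosome genes rose in number with every CKI shown but Mubritinib, with 69 of 94 for Lapatinib and 64 of 94 for Omipalisib, with which 1 member rose.

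No difference between the DMSO sets was detected in the members. Between set 1 and set 2, 0 of 96 members and 0% of all tested genes were called by limma, no member had an unadjusted p under 0.05 beside 310 of 12714 genes, and the median difference of the members was -0.03 on the log2 scale. The cells carried the macrophage markers in all samples, with summed values of the 8 markers between 85635 and 250475, while the erythroid list reached at most 6, the B cell list 46, the T cell list 143, the dendritic list 162, the stroma list 222, the endothelium list 522 and the neutrophil and precursor list 2122. The megakaryocyte list lay between 2527 and 9398, nearly all of it *Pf4*. The part of such cells in the results was not tested. The totals of the samples lay between 9477340 and 12273349, and no sample pair of the same group was identical.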

How the data were processed

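RNA was sequenced from 180 macrophage samples by SMART-seq2. According to the methods, the authors aligned reads to mm10 with TopHat2 2.1.1, removed blacklisted regions with bedtools 2.29.2, counted exonic reads, scaled each sample on invariant genes and rounded. The deposited values are therefore treated as a score with no fixed unit. Because they are not raw counts, limma 3.58.1 (R 4.3.3) on log2(value + 1), with a variance trend and all 59 groups in 1 fit, was used in place of the study's DESeq2. All comparisons were CKI against the 6 DMSO samples, with Benjamini-Hochberg adjustment over the 12714 genes with a mean of at least 10 and a threshold of 0.05. Figures and tables were made with Python 3.11.15.

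Members and lists were chosen with earlier results of these data known. Named genes were isoform families, core subunits and *Cox5a*, the most often called and the steadiest members, and those at the level limit. Per leading CKI, they were also the called members not overlapping DMSO that rose most (up to 3) or fell most (up to 3). The CKIs and members described for lower calls were added after their values were seen. The 6 leading CKIs had the most members called, and Mubritinib was taken by name.

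Deviations from the group means were compared between CKI and DMSO samples of the same replicate number. Every pair correlated at over 0.1 for 34 of 58 CKIs and 4 of the leading 7 comparisons, Lapatinib, Apitolisib, Pimasertib and Lenvatinib, where the numbers were taken to pair the samples. The main fit had no block, so its counts, standard errors and adjusted p-values ignore this pairing. Fits with the replicate number as a block are given as alternatives. Of 174 samples 126 correlated best with their own number. The scripts were tested on simulated data.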

Additional observations from a re-analysis of the deposited data

Results flagged for a closer look

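In the DMSO group, *Cox6b1* had 2281 in replicate 1 of set 2, whereas the other 5 samples lay between 862 and 1360. *Ndufb3* had 383 in the same sample, beside 139 to 213 in the others. In both, the gap to the nearest sample was a larger part of the range than Dixon's 95% critical value for 6 samples. These were 2 of 53 groups of values tested, and chance gives about 1 in 20. That sample also had the highest mitochondrially encoded share of the DMSO samples (1.05%), whose part in these values was not tested.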

How the results depend on the processing

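The counts of members called (268 pooled, 53 Lapatinib, 39 Apitolisib, 37 Pimasertib, 36 Afatinib, 27 Lenvatinib, 27 Filgotinib, 12 AZD2014, 9 BGT226, 9 Omipalisib) stayed within 1.5 times with pseudocounts of 0.5 and 10, a filter at 50 and no variance trend. Where they moved further, the cause was not tested. Without the filter on low values, which adds genes to the adjustment, they were 163 pooled, 23 Apitolisib, 19 Afatinib, 8 Lenvatinib, 11 Filgotinib and 7 AZD2014. The median of ratios gave 23 Apitolisib, 1 Lenvatinib, 43 Filgotinib, 38 BGT226 and 21 Omipalisib, and equal totals 33 Lapatinib, 0 Lenvatinib, 20 BGT226 and 23 Omipalisib. With DMSO set 1 alone they were 67 pooled, 26 Lapatinib, 0 Apitolisib, 12 Pimasertib, 3 Afatinib, 0 Lenvatinib, 0 Filgotinib and 6 AZD2014, and with set 2 alone 110, 32, 6, 18, 21, 0, 11 and 6 in the same order, and 5 Omipalisib. With the replicate block they were 536 pooled, 49 Lenvatinib, 46 Filgotinib, 21 BGT226 and 19 Omipalisib, and the block moved no other of these counts by over 1.5 times. With the block and the mitochondrial share they were 2 Lapatinib, 0 Apitolisib, 0 Pimasertib, 55 Afatinib, 0 Lenvatinib, 26 AZD2014, 23 BGT226 and 16 Omipalisib. A log2 fold change of at least 0.5 left 166 pooled, 18 Afatinib, 11 Filgotinib, 7 AZD2014, 2 BGT226 and 3 Omipalisib. With only the CKI and DMSO in the fit, which leaves fewer samples for the spread, they were 21 Apitolisib, 19 Pimasertib, 2 Afatinib, 0 Lenvatinib, 16 Filgotinib, 7 AZD2014, 3 BGT226 and 5 Omipalisib.

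Leaving out replicates gave 16 to 421 pooled, 0 to 55 Lapatinib, 0 to 53 Apitolisib, 0 to 55 Pimasertib, 0 to 45 Afatinib, 0 to 44 Lenvatinib, 0 to 37 Filgotinib, 2 to 14 AZD2014, 4 to 15 BGT226 and 3 to 20 Omipalisib. Leaving out single DMSO samples, and the alternatives for AZD2014, BGT226 and Omipalisib, were added after seeing the data. Mubritinib had 0 in each alternative, by limma. Leaving out replicates moved the median of the members with Omipalisib from -0.04 to between -0.11 and 0.053, with a turn to 0.042 without replicate 3 of every group and 0.053 without its own replicate 3. *Ndufaf1* with Pimasertib turned to -0.0073 (adjusted p = 0.995 by limma) with the block and mitochondrial share. Over single genes, 3819 of 5968 alternative values kept direction and call, 2148 lost the call and 1 turned. Depth is not given as raw counts, so no counting interval was computed.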
